A study of Rattus norvegicus with 6 samples.

Results

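Genes that mark fibroblasts and other stromal cells were followed in primary cultures of rat testis cells from 2 ages. The set held 7 genes, Thy1, Dpt, Dcn, Lum, Fbn1, Postn and Tgfbi, of 14506 genes tested, and each was read by the 1 probe set that names it alone. The rule lists them by name and uses no measured value of this comparison, but they were chosen with earlier results of these data known. Total RNA from cells of 9-day-old rats, placed by the labels in the proliferative phase of Sertoli cells, and of 21-day-old rats, placed after it, was measured on 3 arrays per age, 6 in all. Both groups came from decapsulated testes that were digested to single cells, plated with 10% fetal bovine serum and given fresh medium after attachment for further purification. No genotype, drug or other agent is named for either group, and the labels used here do not state the strain or whether animals were pooled. The study set out to find genes of proliferation and cell death that differ between these ages. Values are log2 signals after RMA, a method that corrects, normalizes and summarises the probes of an array.

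Stromal fibroblasts build the interstitial matrix between the tubules of the testis, and peritubular cells lay down the outer part of the tubule wall. Decorin (Dcn) and lumican (Lum) are small leucine-rich proteoglycans that bind collagen fibrils and limit their width, and dermatopontin (Dpt) binds decorin and collagen. Fibrillin-1 (Fbn1) forms the microfibrils on which elastic fibres assemble, and periostin (Postn) and Tgfbi are secreted proteins with fasciclin domains that link collagen to integrins. Thy1 is a GPI-anchored surface glycoprotein widely used to recognise fibroblasts. Sertoli cells, the labelled cell type, are epithelial and are not known for this set of products.

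Most genes on a wider list of stromal products gave high signals at both ages, but not all of the 7 members did. Of the 27 measured genes on a list of fibroblast surface and stromal products, 20 lay above the upper quartile of every array, which was 6.04 to 6.12. Of 18 Sertoli cell markers 4 did so, and 4 lay below the median of every array (3.78 to 3.87). Amh, the hormone of immature Sertoli cells, read 3.07 to 3.49 and the follicle-stimulating hormone receptor gene Fshr 2.43 to 3.48. The 4 high markers included Wt1, a transcription factor of Sertoli cells, at 6.94 to 7.44. The others were Gata4 (7.56 to 8.21), Clu (8.78 to 10.73) and Ctsl (9.63 to 10.38). Quartile and median were taken over all 29214 probe sets of an array, unnamed ones included. Of the 7 members Thy1, Dcn and Fbn1 lay above the upper quartile of every array, and Dpt, Lum, Postn and Tgfbi did not. Among the genes alone Lum, with means of 6.11 and 6.25 at 9 and 21 days, was only at percentile 68.6. Postn was at percentile 70.2, Tgfbi at 57.6 and Dpt at 55.1. The share of all genes past these cut-offs was not counted. Signals of different probe sets are not amounts of transcript, so these positions are a rough guide only. Markers of endothelial cells lay below the median of every array for 6 of 9 genes, macrophage markers for 7 of 11 and germ cell markers for 7 of 9. Leydig cell markers did so for 4 of 6, but the cholesterol carrier gene Star read 10.84 to 11.28 and the hormone gene Insl3 3.98 to 4.59.

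In limma the count of members past an adjusted p of 0.05 between the ages was 0 of 7, as it was for all genes (0% of 14506). The lowest adjusted p over all genes was 0.685, and each of the 7 had an adjusted p of 1. At an unadjusted p under 0.05 there was 1 of the 7, Thy1, beside 2.97% of all genes. With the replicate number as a block these were 2 of 7, Thy1 and Tgfbi, beside 7.73%, and again none at an adjusted p under 0.05. Differences of at least 2-fold were seen for 2 of 7, both higher at 21 days (0.352% of all genes), and none was lower by that much (0.0758%). In no member were the 3 values of one age all above those of the other, a separation that 5.72% of genes showed. Of the 7 genes 5 had a higher mean at 21 days and 2 a lower one, where 46.5% of all genes were higher and 53.5% lower. The median log2 difference was 0.13 over the 7 genes and -0.0093 over all genes. Bulk RNA of a culture cannot tell apart fewer cells of a type and less RNA per cell.

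The genes differed more in how their arrays paired. Titles number the arrays 1 to 3 at each age, and arrays of the same number deviated together. Thy1, Dpt and Tgfbi were higher at 21 days in all 3 pairs, 3 of 7 genes beside 10.7% of all genes. Dcn, Lum, Fbn1 and Postn had pairs in both directions, and none of the 7 was lower in all 3 pairs, as 14.4% of genes were.

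**Figure D1:**
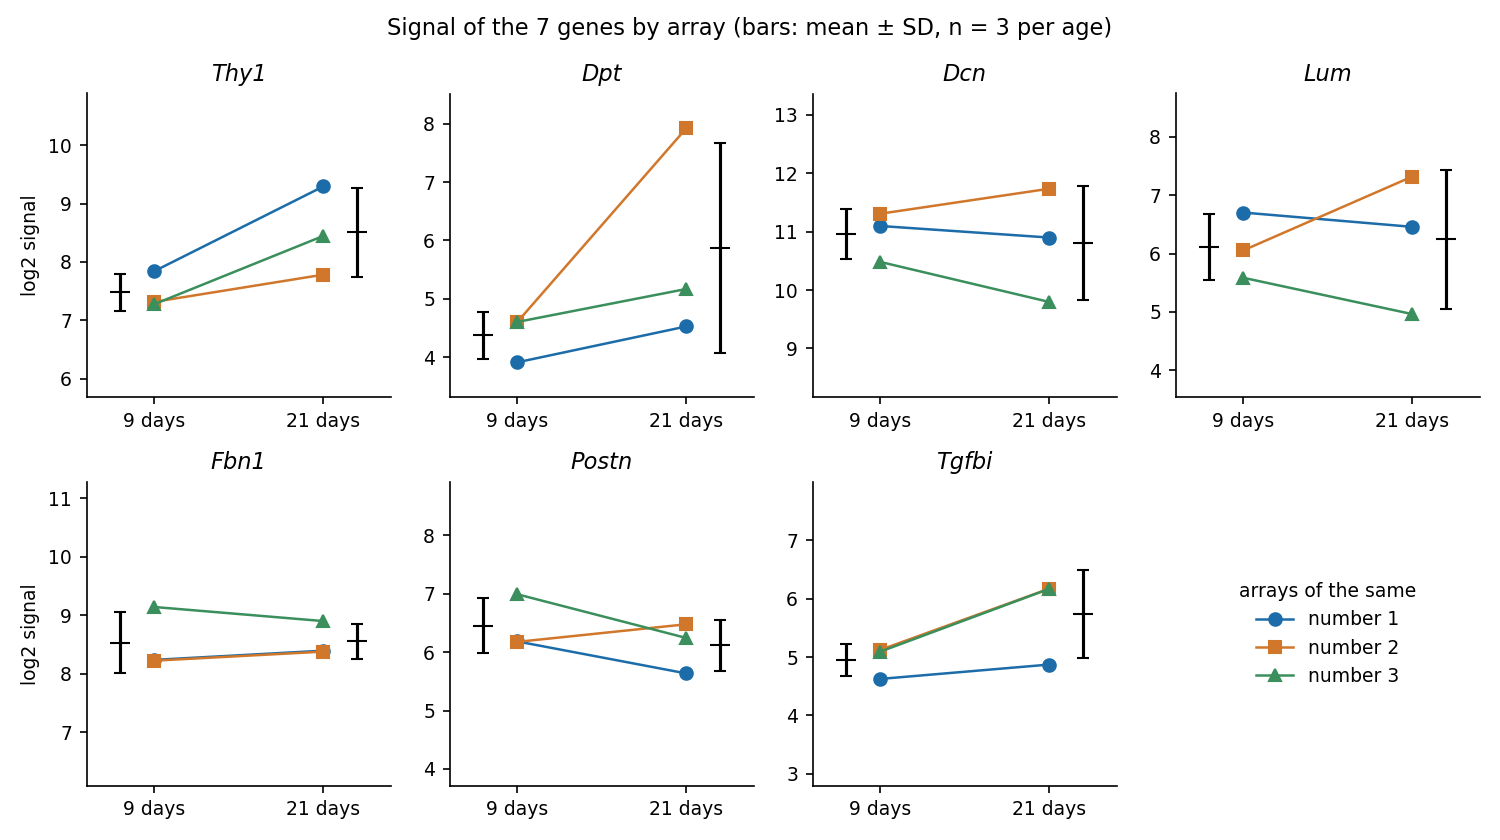
Log2 signal (vertical axis, each panel spanning the same number of log2 units) of the 7 genes at 9 and 21 days, with a line for each pair of arrays of the same number and black bars for the mean and SD of 3 arrays. Lines for Thy1, Dpt and Tgfbi all go up, the Dpt line of number 2 reaches 7.92, and the arrays numbered 3 are lowest for Dcn and Lum and highest for Fbn1 at both ages.

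Thy1 signal was 7.84, 7.32 and 7.28 on the 9-day arrays numbered 1, 2 and 3, and 9.29, 7.78 and 8.44 on the 21-day arrays. The 21-day array numbered 1 was the highest, and the lowest 21-day value, 7.78, fell just under the highest 9-day value. The younger cultures averaged 7.48 ± 0.32 and the older 8.51 ± 0.76 (SD, n = 3 each), 2.04-fold apart. On the log2 scale this was 1.03 ± 0.40 (SE), with a 95% interval of 0.053 to 2.00 and an unadjusted p of 0.0419 in limma, which did not hold after adjustment. Of the 14506 genes 49 had a larger positive difference. Without 21-day-old replicate 1 it was 0.64. Pair by pair it was 1.45, 0.47 and 1.17, and age accounted for 54.1% of the gene's sum of squares over the 6 arrays, beside a median of 10.9% over all genes.

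Dpt had the widest spread of the 7 genes. It read 3.91, 4.60 and 4.60 on the younger arrays and 4.53, 7.92 and 5.17 on the older ones. One array, number 2 at 21 days, stood 2.75 above the next. The means were 4.37 ± 0.40 and 5.87 ± 1.80 (SD, n = 3 each), 2.83-fold apart. The difference of 1.50 ± 0.88 (log2, SE) had an interval of -0.68 to 3.68 and an unadjusted p of 0.142, and without 21-day-old replicate 2 it was 0.47. In the pairs numbered 1 and 3 Dpt was higher by 0.61 and 0.56, and in the pair numbered 2 by 3.32. The SD of Dpt over the 6 arrays, 1.43, was at percentile 99.9 of all genes. Its mean signal lay at percentile 55.1.

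Tgfbi, named for its induction by transforming growth factor beta, read 4.62, 5.12 and 5.09 in the younger cultures against 4.87, 6.17 and 6.17 in the older. The 21-day array numbered 1 fell among the 9-day values, and the other two lay above them. Its means were 4.95 ± 0.28 and 5.74 ± 0.75 (SD, n = 3 each), 1.73-fold apart, which is 0.79 ± 0.39 (log2, SE) with an interval of -0.16 to 1.74 and an unadjusted p of 0.0881. Without 21-day-old replicate 1 the difference was 1.22. A difference of at least this size in the same direction was found for 83 genes, 0.572% of those tested. The pairs differed by 0.25, 1.05 and 1.08.

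Postn, the other gene of the fasciclin family, did not share this pattern. Its signal was 6.18, 6.18 and 6.99 at 9 days against 5.64, 6.48 and 6.24 at 21 days, with the highest value in the 9-day array numbered 3. The ages overlapped, at 6.45 ± 0.47 and 6.12 ± 0.43 (SD, n = 3 each). The log2 difference of -0.33 ± 0.31 (SE) had an interval of -1.10 to 0.43 and an unadjusted p of 0.327. It was -0.061 without 9-day-old replicate 3, -0.090 without 21-day-old replicate 1 and -0.51 without 21-day-old replicate 2.

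**Figure D2:**
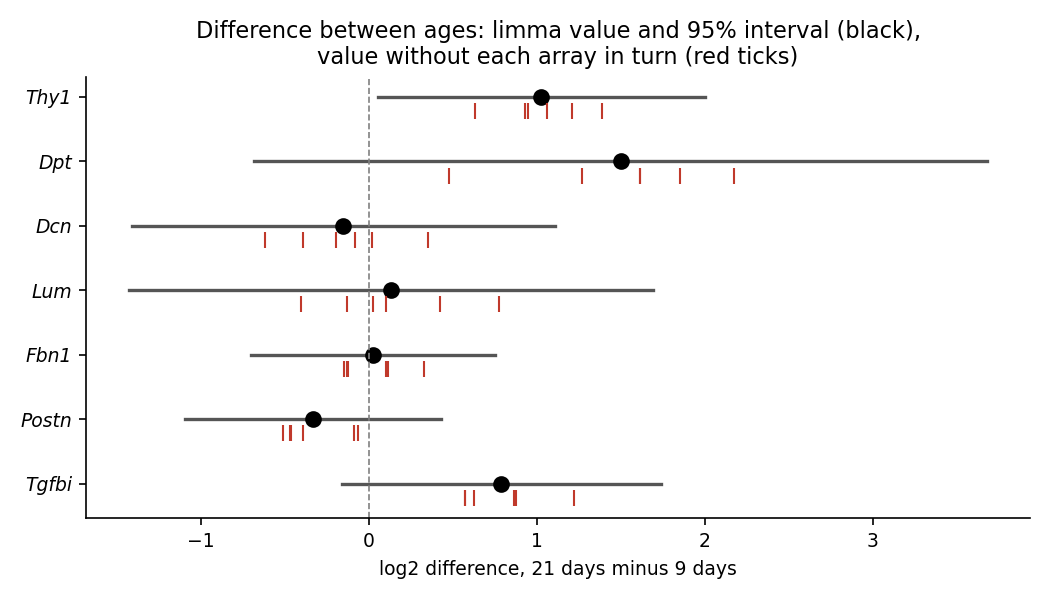
Log2 difference between the ages (21 days minus 9 days, horizontal axis) for each gene, as the limma value with its 95% interval in black and the value without each of the 6 arrays in turn as red ticks. The interval lies above 0 for Thy1 alone, the ticks stay above 0 for Thy1, Dpt and Tgfbi and below it for Postn, and they fall on both sides for Dcn, Lum and Fbn1.

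Dcn and Lum, the 2 collagen-binding proteoglycans, ran together from array to array, while their means at the 2 ages lay close. Dcn read 11.10, 11.31 and 10.48 on the 9-day arrays and 10.90, 11.74 and 9.80 on the 21-day arrays. In the same order Lum read 6.70, 6.05 and 5.59, then 6.46, 7.32 and 4.96. For both genes the 21-day array numbered 2 was the highest of all 6 and the 21-day array numbered 3 the lowest. Dcn averaged 10.96 ± 0.43 and 10.81 ± 0.97, and Lum 6.11 ± 0.56 and 6.25 ± 1.19 (SD, n = 3 each).

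The difference between the ages was -0.15 ± 0.51 (log2, SE; interval -1.41 to 1.11) for Dcn and 0.13 ± 0.63 (interval -1.42 to 1.69) for Lum. These intervals, from the fit without the replicate block, take in a 2-fold change in either direction, so they do not show that the genes stayed level. With the block the SE was smaller, 0.22 for Dcn and 0.38 for Lum, and intervals were not computed. The sign for Dcn turned without 21-day-old replicate 3 (0.36) or 9-day-old replicate 2 (0.021), and the sign for Lum turned without 21-day-old replicate 2 (-0.40) or 9-day-old replicate 3 (-0.13). Other arrays also moved these values by over 1.5 times: Dcn was -0.61 without 21-day-old replicate 2, -0.39 without 9-day-old replicate 3 and -0.084 without 9-day-old replicate 1, and Lum was 0.77 without 21-day-old replicate 3, 0.43 without 9-day-old replicate 1 and 0.027 without 21-day-old replicate 1. Replicate number held 84.9% of the sum of squares of Dcn and 70.7% of that of Lum, against 1.51% and 0.755% for age.

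Over the 6 arrays Dcn and Lum correlated with a Pearson r of 0.92 (exact permutation p = 0.0139, adjusted 0.146 over the 21 pairs of members) and a Spearman rho of 0.83 (exact permutation p = 0.0583, adjusted 0.613). Without the 2 arrays farthest from the median of Dcn, the 21-day arrays numbered 2 and 3, r was 0.57, so much of the relation rests on those arrays. The permutation treats the arrays as exchangeable, although they share ages and numbers. After the mean of each age was taken away, r was 0.94. In the rat assembly GRCr8 the genes of Dcn and Lum are direct neighbours on chromosome 7. Kera and Epyc, which encode 2 further leucine-rich proteoglycans and follow Lum on that chromosome, read only 2.07 to 2.27 and 2.43 to 3.24, below the medians of the arrays.

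Fbn1 ran against this pair. Its signal was 8.24, 8.22 and 9.14 in the younger cultures and 8.39, 8.38 and 8.90 in the older. The array numbered 3 was the highest at each age, and the other 4 lay within 8.22 to 8.39. Means of 8.53 ± 0.53 and 8.56 ± 0.30 (SD, n = 3 each) gave a log2 difference of 0.024 ± 0.29 (SE; interval -0.70 to 0.75), the smallest of the 7. This sign turned with median centring of the arrays (-0.0017) and without 9-day-old replicate 1 (-0.13), 9-day-old replicate 2 (-0.13) or 21-day-old replicate 3 (-0.15). The difference was 0.33 without 9-day-old replicate 3, 0.11 without 21-day-old replicate 1 and 0.11 without 21-day-old replicate 2. Replicate number held 92.7% of the sum of squares of Fbn1, with a median of 51.7% over all genes. Its Pearson r with Dcn was -0.75 (exact permutation p = 0.0889, adjusted 0.467) and its rho -0.77 (exact permutation p = 0.103, adjusted 0.719), and without the 2 arrays farthest from the median of Dcn r was -0.94. Among the arrays that remained, the 9-day array numbered 3 stood apart (Dcn 10.48, Fbn1 9.14) and weighs heavily in this r.

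The arrays numbered 3 also differed in other cell markers. Relative to the mean of the other 2 arrays of the same age, Fbn1 was higher there by 0.91 at 9 days and 0.52 at 21 days, and Postn by 0.81 and 0.19. Lum was at -0.79 and -1.92 on the same scale, and Dcn at -0.72 and -1.52. The mean of 13 markers of smooth muscle and peritubular myoid cells, the contractile cells of the tubule wall, was higher there by 1.27 and 1.44. Its level ran from 7.44 to 8.82 at 9 days and from 6.94 to 8.61 at 21 days. Acta2, the smooth muscle actin, read 12.06, 12.02 and 12.88 at 9 days and 12.05, 11.50 and 12.68 at 21 days, and Myh11, its myosin heavy chain, 7.16, 6.88 and 9.16 against 7.46, 6.06 and 8.73. The part of these cells in the values of the 7 genes was not tested. Sertoli cell markers averaged 4.92 to 5.08 at 9 days and 5.23, 5.54 and 6.09 at 21 days, with the highest value in the array numbered 3, which is the lowest for Dcn and Lum. Within that list the secreted products Tf (8.33, 8.76 and 11.13 at 21 days) and Testin (4.25, 4.53 and 7.17) moved most visibly. Wt1 (6.95, 7.20 and 7.44) and Gata4 (8.01, 7.56 and 8.21) moved less. Whether the share of Sertoli cells differed was not tested.

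**Figure D3:**
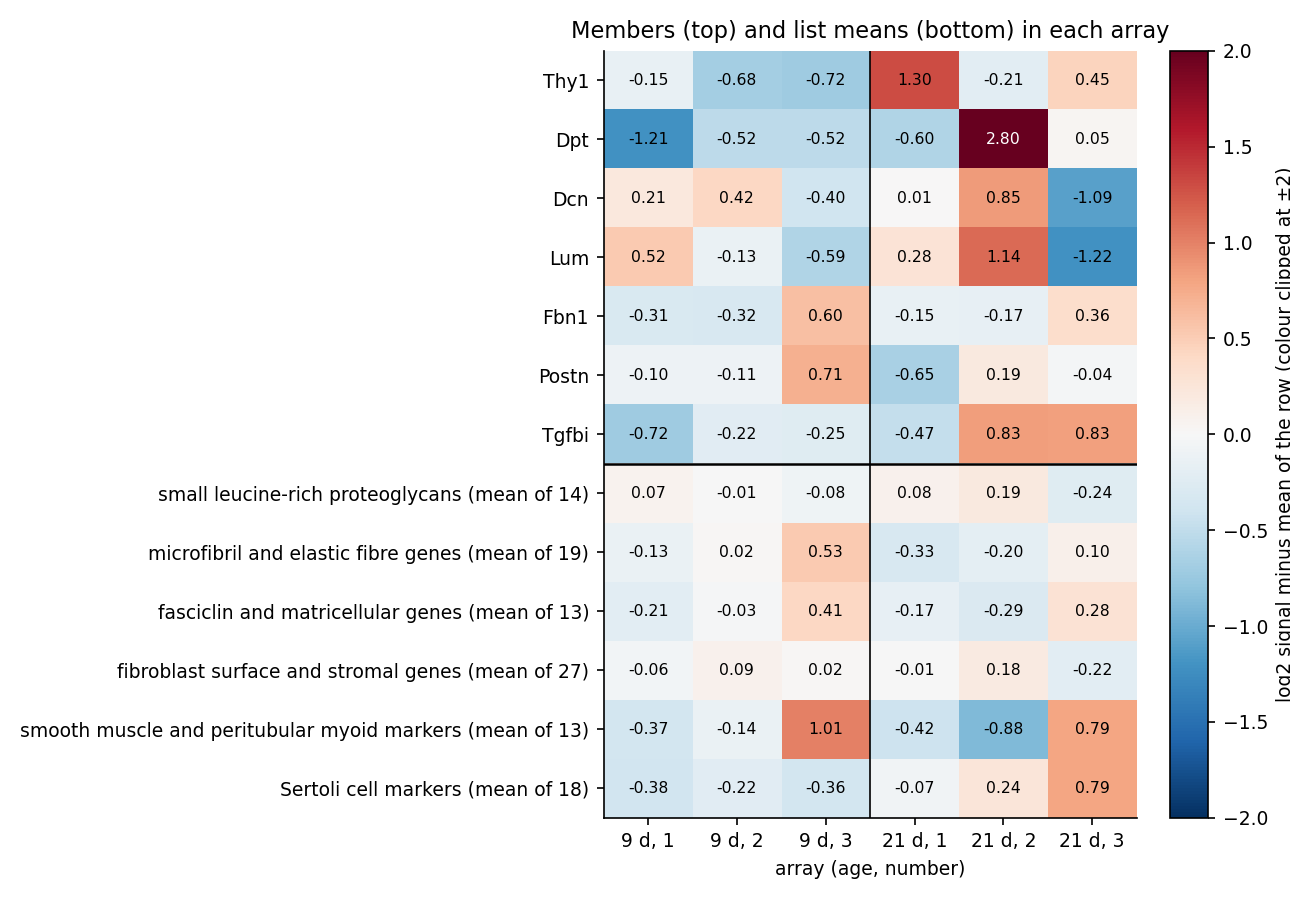
Log2 signal of the 7 genes (top) and mean log2 signal of 6 gene lists (bottom) in each of the 6 arrays, as the deviation from the mean of the row, with red above and blue below it. Dcn and Lum are lowest in the 21-day array numbered 3, where smooth muscle and Sertoli cell markers are high, and Dpt stands out in the 21-day array numbered 2.

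Dpt and Tgfbi were the pair of members with the second highest r, 0.79 (exact permutation p = 0.00278, adjusted 0.0583 over 21 pairs), and with the highest rho, 0.94 (exact permutation p = 0.0167, adjusted 0.350). Without the arrays farthest from the median of Dpt, the 9-day array numbered 1 and the 21-day array numbered 2, r was 0.997 over the 4 that remained. Of those 4 the 21-day array numbered 3 stood apart, at 5.17 for Dpt and 6.17 for Tgfbi. The others lay at 4.53 to 4.60 and 4.87 to 5.12, so 1 array weighs heavily in this r. Thy1, the third gene that was higher in every pair, had an r over the 6 arrays of -0.080 (exact permutation p = 0.861) with Dpt and 0.0088 (exact permutation p = 0.990) with Tgfbi. After the mean of each age was taken away, r was -0.91 for Thy1 with Dpt, -0.91 for Thy1 with Tgfbi and 0.67 for Dpt with Tgfbi, values given without a test. Thy1 was highest in the 21-day array numbered 1, where Dpt and Tgfbi were lowest for that age. Dpt was highest in the 21-day array numbered 2, where Thy1 was lowest for that age. Tgfbi was nearly equal in the 21-day arrays numbered 2 and 3, only 0.0022 apart.

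**Figure D4:**
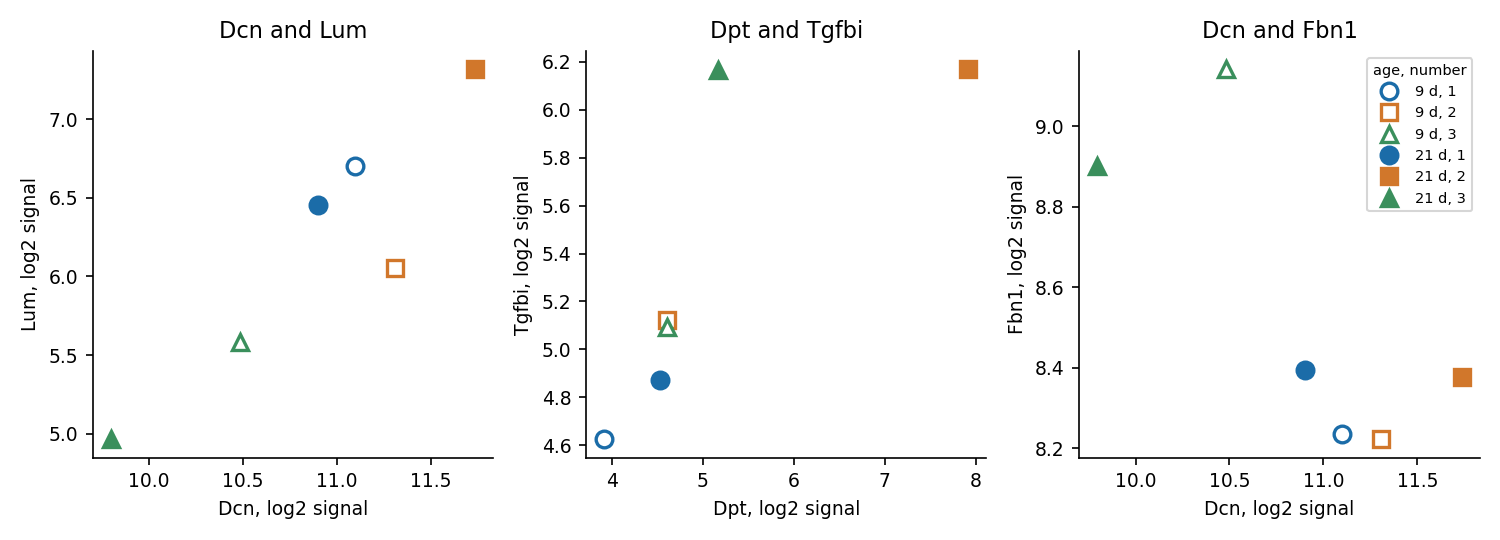
Log2 signals of Dcn and Lum, Dpt and Tgfbi, and Dcn and Fbn1 in the 6 arrays, with open symbols for 9 days, filled symbols for 21 days and shape and colour for the replicate number. Dcn and Lum lie along a rising line, the 2 arrays of highest Fbn1 have the lowest Dcn, and Dpt and Tgfbi keep nearly the same order.

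Stretches of the RefSeq promoter windows of Dpt and Tgfbi, in GRCr8, are shown because these genes had the most similar order of arrays among the 7. Each window is the 250 bases before a start, which for Tgfbi lies 121 bases inside the gene record. Capitals mark TATAAA (the TATA box), CCAAT (the CCAAT box) and GGGCGG (the GC box) on either strand. The Dpt sequence is the 250 bases before the start, chr13:79656091-79656340 on the plus strand, and the Tgfbi sequence is chr17:7990235-7990363 on the minus strand, the 129 bases of the same window that lie outside the gene record.
Dpt: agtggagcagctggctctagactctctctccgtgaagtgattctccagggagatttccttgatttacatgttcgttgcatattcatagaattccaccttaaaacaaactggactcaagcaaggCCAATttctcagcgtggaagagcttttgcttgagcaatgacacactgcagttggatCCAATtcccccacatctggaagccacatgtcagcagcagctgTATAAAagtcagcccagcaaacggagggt
Tgfbi: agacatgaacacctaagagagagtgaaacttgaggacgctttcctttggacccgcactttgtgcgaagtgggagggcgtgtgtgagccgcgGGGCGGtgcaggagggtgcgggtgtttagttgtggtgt

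In letters the windows of these 2 genes have little in common. The 250 bases of Dpt hold 47.2% G and C and 4 CG dinucleotides, and those of Tgfbi 65.6% and 22, with medians of 51.2% and 5 over 33469 windows of this length. The last 121 bases of the Tgfbi window lie inside its gene record, while the Dpt window lies outside its own. Counted back from the start, Dpt has a TATAAA at base -29 (12.9% of windows hold it on either strand) and CCAAT at -127 and -71 (34% of windows). Tgfbi has GGGCGG or its complement at -159 and -20 (30.5% of windows), and no match to the TATA or CCAAT box. The second lies beyond the printed stretch and inside the gene record. The E-box letters CANNTG occur 5 times in the Dpt window, none of them overlapping the boxes in capitals, and 0 times in the Tgfbi window (65.5% of windows). The AP-1 letters TGANTCA occur in neither (6.34% of windows). These are matches of letters, not binding sites.

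Genes whose 6 values ran most like each member were picked by Pearson r over all genes. They were Osgin1 (0.988) and Or52e4 (0.985) for Thy1, Klhl6 (0.998) and Itln1 (0.995) for Dpt, and Ldhc (0.998) and Mmaa (0.988) for Tgfbi. For Dcn they were Tor1a (0.998) and Apba3 (0.995), for Lum Snx1 (0.996) and Ring1 (0.987), for Fbn1 Abo3 (0.989) and Atp8b1 (0.986), and for Postn Elavl3 (0.998) and Gipr (0.995). Many vary far less in size than the member they follow: Itln1 ran only from 2.26 to 2.42 where Dpt spanned 4.01 log2 units. These values describe 6 arrays that share ages and numbers and carry no test. By the same measure Dcn ranked 202 among the genes most like Lum, and Lum 524 among those most like Dcn. Dpt ranked 453 among the genes most like Tgfbi, and Tgfbi 854 among those most like Dpt.

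Other stromal and matrix genes gave a different picture from Thy1, Dpt and Tgfbi. On the list of fibroblast surface and stromal genes 18 of 27 were lower at 21 days and 9 higher, with a median log2 difference of -0.098, where 53.5% of all genes were lower. That median was -0.021 without 9-day-old replicate 3, -0.039 without 21-day-old replicate 3 and -0.012 without both arrays numbered 3. None passed an adjusted p under 0.05. At an unadjusted p under 0.05 there were 3, Thy1 and the receptors Pdgfra and Pdgfrb, beside 2.97% of all genes. With the replicate block there were 6 of 27, beside 7.73%. Pdgfra, a receptor for platelet-derived growth factor and a usual marker of fibroblasts, read 8.48, 8.93 and 8.59 at 9 days and 7.86, 8.24 and 7.70 at 21 days. Every 21-day value lay below every 9-day value. Its log2 difference was -0.73 ± 0.18 (SE; unadjusted p 0.00736, adjusted p 1 in limma), and -0.60 to -0.89 without each array in turn. Pdgfrb, the related receptor of pericytes and mesenchymal cells, read 7.40, 7.80 and 7.69 against 6.96, 6.99 and 7.11, likewise without overlap, a difference of -0.61 ± 0.12 (unadjusted p 0.00228). The podoplanin gene Pdpn differed by -0.52 ± 0.28, or by -0.30 without 21-day-old replicate 1 and -0.81 without 21-day-old replicate 2. So 2 common fibroblast markers, Thy1 and Pdgfra, had opposite signs between the ages.

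Microfibril and elastic fibre genes, the partners of Fbn1, were lower at 21 days for 13 of 19 and higher for 6. Of all genes 53.5% were lower, and the median of the list was -0.20. This was -0.012 without 9-day-old replicate 3 and -0.31 without 9-day-old replicate 1. All 3 pairs were lower for 8 of them, beside 14.4% of all genes, and none passed the adjusted threshold. At an unadjusted p under 0.05 there were 2 of 19, and 7 with the replicate block, beside 2.97% and 7.73% of all genes. Mfap4, a microfibril-associated glycoprotein, read 7.95, 9.33 and 9.39 at 9 days and 6.21, 8.30 and 7.39 at 21 days, a log2 difference of -1.59 ± 0.64 (SE; unadjusted p 0.0478) that was -1.05 without 21-day-old replicate 1. Ltbp3 and Ltbp4 encode proteins that hold latent TGF-beta on microfibrils. Ltbp3 differed by -0.44 ± 0.13 without overlap between the ages, and Ltbp4 by -1.01 ± 0.49, or by -0.64 without 9-day-old replicate 3. These genes were picked for their low p. Fbn1 itself, at 0.024, was among the 6 that were higher, and its interval of -0.70 to 0.75 takes in the median of the list. The mean of the list was 0.58 and 0.36 higher in the arrays numbered 3 than in the others of their age.

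Among small leucine-rich proteoglycans, the family of Dcn and Lum, 9 of 14 had a higher mean in the older cultures and 5 a lower one. Of all genes 46.5% were higher. None passed the threshold. At an unadjusted p under 0.05 there was 1 of 14 with the replicate block, beside 7.73% of all genes, and none without it. The median difference of the 14 was 0.028. The median turned without 21-day-old replicate 2 (-0.019) or 9-day-old replicate 3 (-7.2e-05), was 0.012 without 21-day-old replicate 1 and 0.15 without 21-day-old replicate 3. Ogn, which encodes osteoglycin, had the lowest p of the list, at 7.38, 7.34 and 7.57 against 7.20, 6.91 and 7.34, a difference of -0.28 ± 0.13 (log2, SE) that was -0.16 without 21-day-old replicate 2. Its ages were barely separated, at 7.3405 on the 9-day array numbered 2 and 7.3374 on the 21-day array numbered 3. Biglycan (Bgn), the nearest relative of decorin, read 11.94 to 12.33 and differed by -0.13 ± 0.11, or by -0.042 without 9-day-old replicate 3 and -0.19 without 21-day-old replicate 3. Chad, the chondroadherin gene, gave 3.17 on 4 arrays and 3.59 at most, a difference of 0.17 ± 0.12, which was 0.051 without 21-day-old replicate 2.

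Of the fasciclin and matricellular genes 10 of 13 were lower at 21 days and 3 higher, where 53.5% of all genes were lower. None of these genes had an unadjusted p under 0.05 (2.97% of all genes), but with the replicate block 4 of 13 did (7.73%). The median of the list was -0.13. The sign of this median turned without 9-day-old replicate 3 (0.018) or 21-day-old replicate 2 (0.040), and it was -0.32, -0.23 and -0.28 without 9-day-old replicate 1, 9-day-old replicate 2 and 21-day-old replicate 3. Tgfbi had the largest difference of this list in either direction. The 3 others with the lowest p were Ccn5 (-0.32 ± 0.14, log2, SE), Smoc2 (-0.45 ± 0.24) and Ccn4 (-0.48 ± 0.55), which encode secreted matrix modulators. Smoc2 was at -0.28 without 21-day-old replicate 1, and Ccn4 at -0.061 without 21-day-old replicate 2 and -0.96 without 21-day-old replicate 3.

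Markers of other cell types gave no adjusted p under 0.05 either. Of all genes 46.5% were higher at 21 days, 53.5% were lower and 2.97% had an unadjusted p under 0.05. With the replicate block the last share was 7.73%. Then 3 of 13 smooth muscle and 7 of 18 Sertoli cell markers had an unadjusted p under 0.05. So did 0 of 6 Leydig, 1 of 9 endothelial, 1 of 11 macrophage and 2 of 9 germ cell markers. Counts by p in the rest of this paragraph are from the fit without the block. Smooth muscle and myoid markers were lower at 21 days for 12 of 13 genes (median -0.32), with none at an unadjusted p under 0.05. Their median turned without 9-day-old replicate 3 (0.042), was -0.017 without 21-day-old replicate 2, and was -0.81 and -0.58 without 21-day-old replicate 3 and 9-day-old replicate 1. Sertoli cell markers were higher for 16 of 18 (median 0.28), a median of 0.20 to 0.38 without each array in turn, and 2 had an unadjusted p under 0.05, the secreted products Tf (3.59 ± 0.78, log2, SE) and Testin (2.28 ± 0.77, or 1.35 without 21-day-old replicate 3). The medians of Leydig, endothelial, macrophage and germ cell markers lay between 0.013 and 0.062, with 4 of 6, 5 of 9, 6 of 11 and 7 of 9 genes higher at 21 days, and 1 of them, Zbtb16 of spermatogonia, had an unadjusted p under 0.05 (-0.22 ± 0.08). Without each array in turn these medians lay between -0.064 and 0.12, and those of endothelial (9-day-old replicate 1 or 21-day-old replicate 2), macrophage (9-day-old replicate 1 or 21-day-old replicate 3) and germ cell markers (21-day-old replicate 3) turned without the arrays named. Their part in the differences of Thy1, Dpt and Tgfbi was not tested. Among endothelial, macrophage and germ cell markers, Pecam1 read 2.88 to 3.66, Ptprc 2.49 to 2.72 and Ddx4 2.41 to 2.53, below the medians of the arrays, while Cd14 read 7.38 to 8.21 and Uchl1 7.68 to 8.43.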

How the data were processed

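The deposited values are log2 signals per probe set that the authors made with RMA, per the submitters' processing notes; the RMA version is not given in the sources used here. Of 29214 probe sets 15310 name 1 gene, 323 several, and 13581 are unnamed here. The probe set with the highest mean was kept per gene, giving 14506 genes. Ages were compared in limma 3.58.1 (R 4.3.3; lmFit, eBayes, 21 minus 9 days, no covariate or filter) with Benjamini-Hochberg adjustment over all genes, tested on simulated data. P-values measure the spread between arrays, which may be technical, since the labels do not say whether replicates were separate cultures; their number limits the precision (median SE 0.112). No detection calls, scan dates or slides were used here.

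Replicate numbers come from the titles. Deviations from the age means correlated at 0.439, 0.549 and 0.673 across genes for numbers 1, 2 and 3, over the limit of 0.1. Differences are therefore also given pair by pair, and the replicate block was fitted as an alternative. The SEs, intervals and p-values given for single genes are from the fit without the block. With the block the SE was 0.20 for Thy1 and 0.19 for Tgfbi. The 7 genes and 10 lists (139 of 163 entries measured) were chosen with earlier results of these data known. Named are the 7 and per member the 2 genes of highest r. Each list gave the 3 other genes of lowest p, and marker lists also the first 3. Not all of these marker genes are printed. Fshr, Clu, Ctsl, Kera, Epyc, Ptprc, Insl3 and Uchl1 were added after their values were seen. Promoter windows (5 of 7 members) are RefSeq, GRCr8. Alternatives were the replicate block, mean filters, scalings, probe set means, all probe sets, variance models, array weights and left-out arrays.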

Additional observations from a re-analysis of the deposited data

How the results depend on the processing

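No gene was called at an adjusted p under 0.05 by limma in any of the alternatives, and the lowest adjusted p of the 7 genes under any of them was 0.397, for Thy1 with the replicate block. Thy1, Dpt, Tgfbi and Postn kept their sign in all 16 alternatives, from 0.64 to 1.39, 0.47 to 2.17, 0.57 to 1.22 and -0.51 to -0.061. Dcn turned without both arrays numbered 3 (0.12, with and without the replicate block), and Fbn1 turned with median centring (-0.0017). Leaving out 1 array gave -0.61 to 0.36 for Dcn, -0.40 to 0.77 for Lum and -0.15 to 0.33 for Fbn1, and 0.10 to 0.57 for the median of the 7, 0.13 with all arrays. Genes at an unadjusted p under 0.05 numbered 431, and 1122 with the replicate block, 781 with the block and without both arrays numbered 3 (an alternative added after the data were seen), 189 among the 7253 genes of highest mean, 780 over all probe sets, and 304 to 628 without 1 array. With those 7253 genes the medians of Leydig, macrophage and germ cell markers were 0.13, 0.24 and -0.14, since few of them remain. The replicate block changed no call.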
